A study of Mus musculus with 16 samples.

Results

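Brain macrophages that grew from transplanted bone marrow were compared with the microglia of the host that had stayed in the same brains, in mice that received no LPS. The comparison rests on 8 of the 16 libraries of the series, 4 of engrafted cells and 4 of host microglia, and mice 5 to 8 each gave both. The titles of these 8 libraries label them as controls at 12 h, the time that the LPS libraries of the series carry too. All animals were labelled C57BL/6J with genotype WT. They had been irradiated with 950 cGy and given donor bone marrow, and the labels allow 3.5 or 9 months before sampling without saying which applies to a library, while the methods place this experiment at 9 months. Engrafted cells carried the CD45.1 form of the leukocyte antigen and host microglia the CD45.2 form, and 10000 cells of the Ly6C/G-negative, CD11b-positive, CD45-low gate were sorted per library. Every host library came from cells that had been irradiated in place and every engrafted library from donor cells that had not, so origin, irradiation and CD45 allele cannot be told apart here. In a sorted bulk sample, fewer cells of a type and less RNA per cell cannot be told apart either.

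Microglia arise from yolk sac precursors that enter the brain before birth and maintain themselves there, whereas bone marrow-derived cells descend from haematopoietic stem cells and settle in the brain only after conditioning such as irradiation. Both are macrophages, and both take up debris, sense nucleotides and microbial products, present antigen and secrete chemokines, growth factors and lipid carriers. What a macrophage can do is set largely by its receptors, its secreted proteins and its metabolic enzymes, and the results below follow that order.

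Reads counted on genes ranged from 565561 to 946753 in the engrafted libraries and from 648933 to 1203597 in the host libraries. Replicate libraries differed by 1.98 to 4.41 times counting noise (chi-square per degree of freedom), and none was a copy of another. All 8 markers of macrophages and microglia were present in every library, and their summed CPM (read counts scaled to a library total of 1000000) was 14957 to 16193 in engrafted cells and 18621 to 21141 in host microglia (exact two-sided permutation test, p = 0.0286). Of these, Tmem119 (-1.36 ± 0.14 on the log2 scale, ± SE), P2ry12 (-1.83 ± 0.11) and Itgam were called higher in the host, and the other 5 were not called. Csf1r, the receptor for the main macrophage survival factor, had 5219.6 ± 104 CPM (mean ± SD, n = 4) in engrafted cells and 5631 ± 743 in host microglia, and the fractalkine receptor Cx3cr1 had 3902 ± 184 and 4034 ± 258. The shared leukocyte antigen gene Ptprc was at 283, 287, 277 and 283 CPM in the engrafted cells of mice 5 to 8 and at 219.7, 224, 232 and 228 in the host microglia, a log2 fold change of 0.32 ± 0.13 (± SE) that did not pass the test. On the first principal component, 64.4% of the variance, the 2 populations separated, and on the second, 8.38%, the engrafted library of mouse 8 stood apart. Neutrophil granule transcripts were present in every engrafted library and nearly absent from the host. The summed CPM of 9 neutrophil markers was 285 to 1317 in the former and 0 to 2.41 in the latter (exact two-sided permutation test, p = 0.0286, the lowest possible with 4 against 4 unpaired libraries). Yet Ly6g itself had at most 1.06 CPM in any library. For every marker sum given here this test took the 8 libraries as independent, although each mouse gave both sorts. A test that kept the 4 pairs could not reach a p this low. The p-values were not adjusted over the 15 marker lists. Monocyte markers summed to 174 to 302 CPM in engrafted cells and 8.85 to 23.9 in host microglia, and perivascular macrophage markers to 877 to 1048 and 24.6 to 34.3. The astrocyte list, in the host mostly Slc1a3, summed to 3.48 to 27.1 CPM in engrafted cells and 184 to 266 in host microglia, and 5 sex-linked genes summed to 231 to 311 and 116 to 204 CPM (p = 0.0286 for each list in the same exact permutation test). The remaining lists overlapped between the populations. Red blood cell markers reached 3078 CPM and ependymal and choroid plexus markers 2342 CPM, both in the engrafted library of mouse 8, pericyte and fibroblast markers reached 253 CPM in that of mouse 5, and T and NK cell, B cell, dendritic cell, neuron, oligodendrocyte and endothelial markers stayed at or below 178 CPM in every library. The part that other cells play in the differences reported here was not tested.

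Across all genes, 8042 passed the filter on low counts, and 883 of them (11.0%) were called, that is, they differed by more than 1 on the log2 scale with an adjusted p below 0.05 (edgeR quasi-likelihood test, Benjamini-Hochberg). The engrafted cells were higher for 503 genes (6.25%) and the host microglia for 380 (4.73%). Of the tested genes 88.8% stayed within 2-fold, and the median log2 fold change was 0.02. Libraries of the 2 populations did not overlap for 2124 genes (26.4%), among them 826 of the 883 called genes. In 48 genes called higher in engrafted cells no host library had more than 3 reads, and in 23 called higher in host microglia no engrafted library did. For these the fold is given as a lower bound against 3 reads per library. Fold changes of genes with few reads in one population moved with single libraries. Of the genes named here that were fitted, 36 moved by over 1.5-fold when 1 library was left out, and 33 of these kept their call, with shifts of up to 3.03 on the log2 scale. Differences above 3 on the log2 scale were found for 117 genes in the direction of engrafted cells and 58 in the direction of the host.

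**Figure D1:**
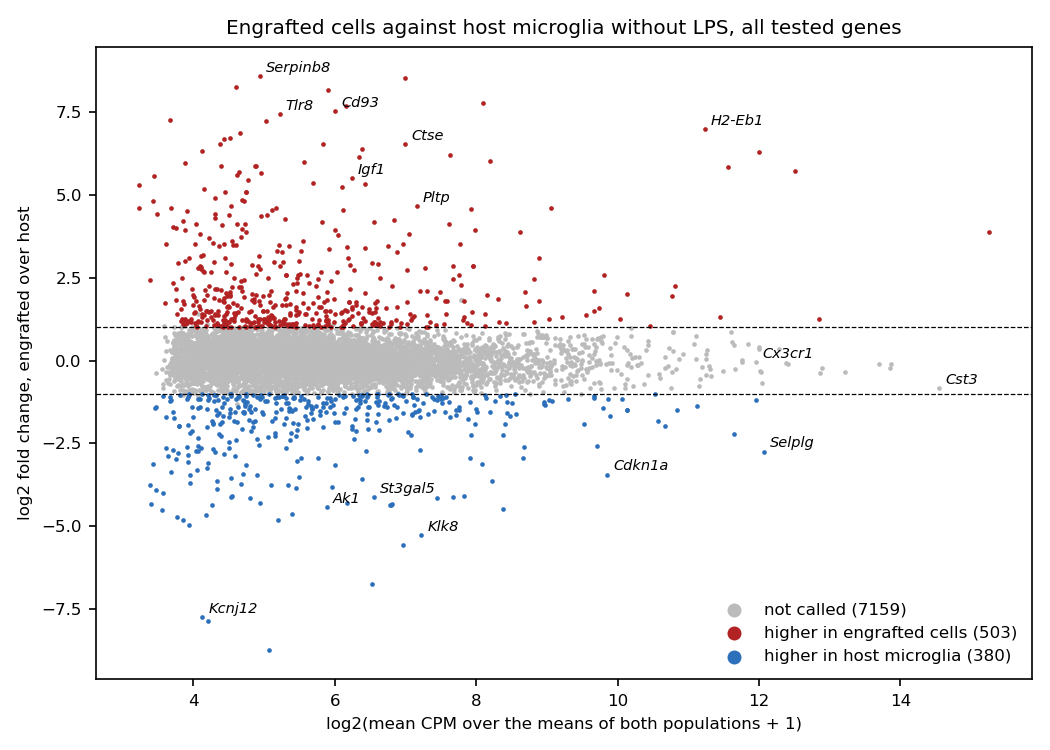
Log2 fold change of engrafted cells over host microglia (vertical) against mean expression, log2(CPM + 1) (horizontal), for the 8042 tested genes. Each point is a gene, red for the 503 called higher in engrafted cells, blue for the 380 called higher in host microglia and grey for the rest, and dashed lines mark 2-fold. The height of genes with almost no read in one population depends on the prior count of the fit. The macrophage receptor gene Cx3cr1 lies near 0, and H2-Eb1 and Selplg are among the abundant genes far from it.

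The genes with the largest differences included several that were all but restricted to one population. Serpinb8, an intracellular serine protease inhibitor, had 62.7, 63.3, 59.2 and 52.0 CPM in the engrafted cells of mice 5 to 8 and no read in any host library, which makes it at least 18.1-fold higher. The C1q receptor-like gene Cd93 had 112, 130.2, 129 and 133 CPM in engrafted cells against 3.07, 0, 0 and 0 in the host, at least 38.4-fold. Ctse, which encodes the endosomal aspartic protease cathepsin E, had 251 ± 15.0 CPM against 2.52 ± 1.15 (log2 fold change 6.52 ± 0.22, adjusted p = 2.35e-17). The 4 values of each of these genes were close together in engrafted cells. The groups were far apart, but the genes were chosen for large differences without overlap. Clec12a, an inhibitory lectin receptor, differed by 7.78 ± 0.27, the interferon-inducible DNA-binding gene Mndal by 6.38 ± 0.33, and the lysosomal phospholipase B-like gene Plbd1 was at least 33.8-fold higher. In the opposite direction Klk8, a secreted kallikrein-type serine protease, had 5.32, 7.23, 8.70 and 9.62 CPM in engrafted cells and 289, 289, 312 and 264 in host microglia (-5.26 ± 0.21, adjusted p = 2.11e-16). Ak1, the adenylate kinase that balances ATP, ADP and AMP, had 4.77 ± 3.56 CPM against 112 ± 16.6 (-4.42 ± 0.29). The lipase gene Liph (-4.64 ± 0.38), the melanosome transport gene Mlph (-4.30 ± 0.30), the actin-bundling gene Fscn1 (-4.10 ± 0.21) and the transmembrane genes Tmem8c (-4.80 ± 0.39) and Tmem44 (-4.29 ± 0.41) followed. Single libraries moved several of these values: Clec12a was at 8.47 without the host library of mouse 8 and Mndal at 8.21 without that of mouse 7, Liph was at -6.70 and Mlph at -5.42 without the engrafted library of mouse 5, and Tmem8c was at -5.96 and Tmem44 at -5.14 without that of mouse 8. Adora3 and Tmigd3, with log2 fold changes of -4.35 and -4.34, lie in one locus and share nearly all their reads, so they count as 1 observation.

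Genes were then grouped into 47 lists, 13 of surface proteins, 8 of secreted proteins, 14 of metabolism and 12 of pathways. Together the lists held 1330 tested genes, of which 193 were called in the direction of engrafted cells and 118 in that of the host, and 310 and 262 of the 6712 tested genes in no list were called likewise. Surface genes were called often and in both directions: of 285 tested, 61 (21.4%) were higher in engrafted cells and 44 (15.4%) in the host. Among 133 secreted-protein genes the shares were 38.3% (51) and 15.8% (21). Of 556 metabolic genes 44 (7.91%) and 41 (7.37%) were called, against 6.25% and 4.73% of all genes, and of 377 pathway genes 47 (12.5%) and 12 (3.18%).

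**Figure D2:**
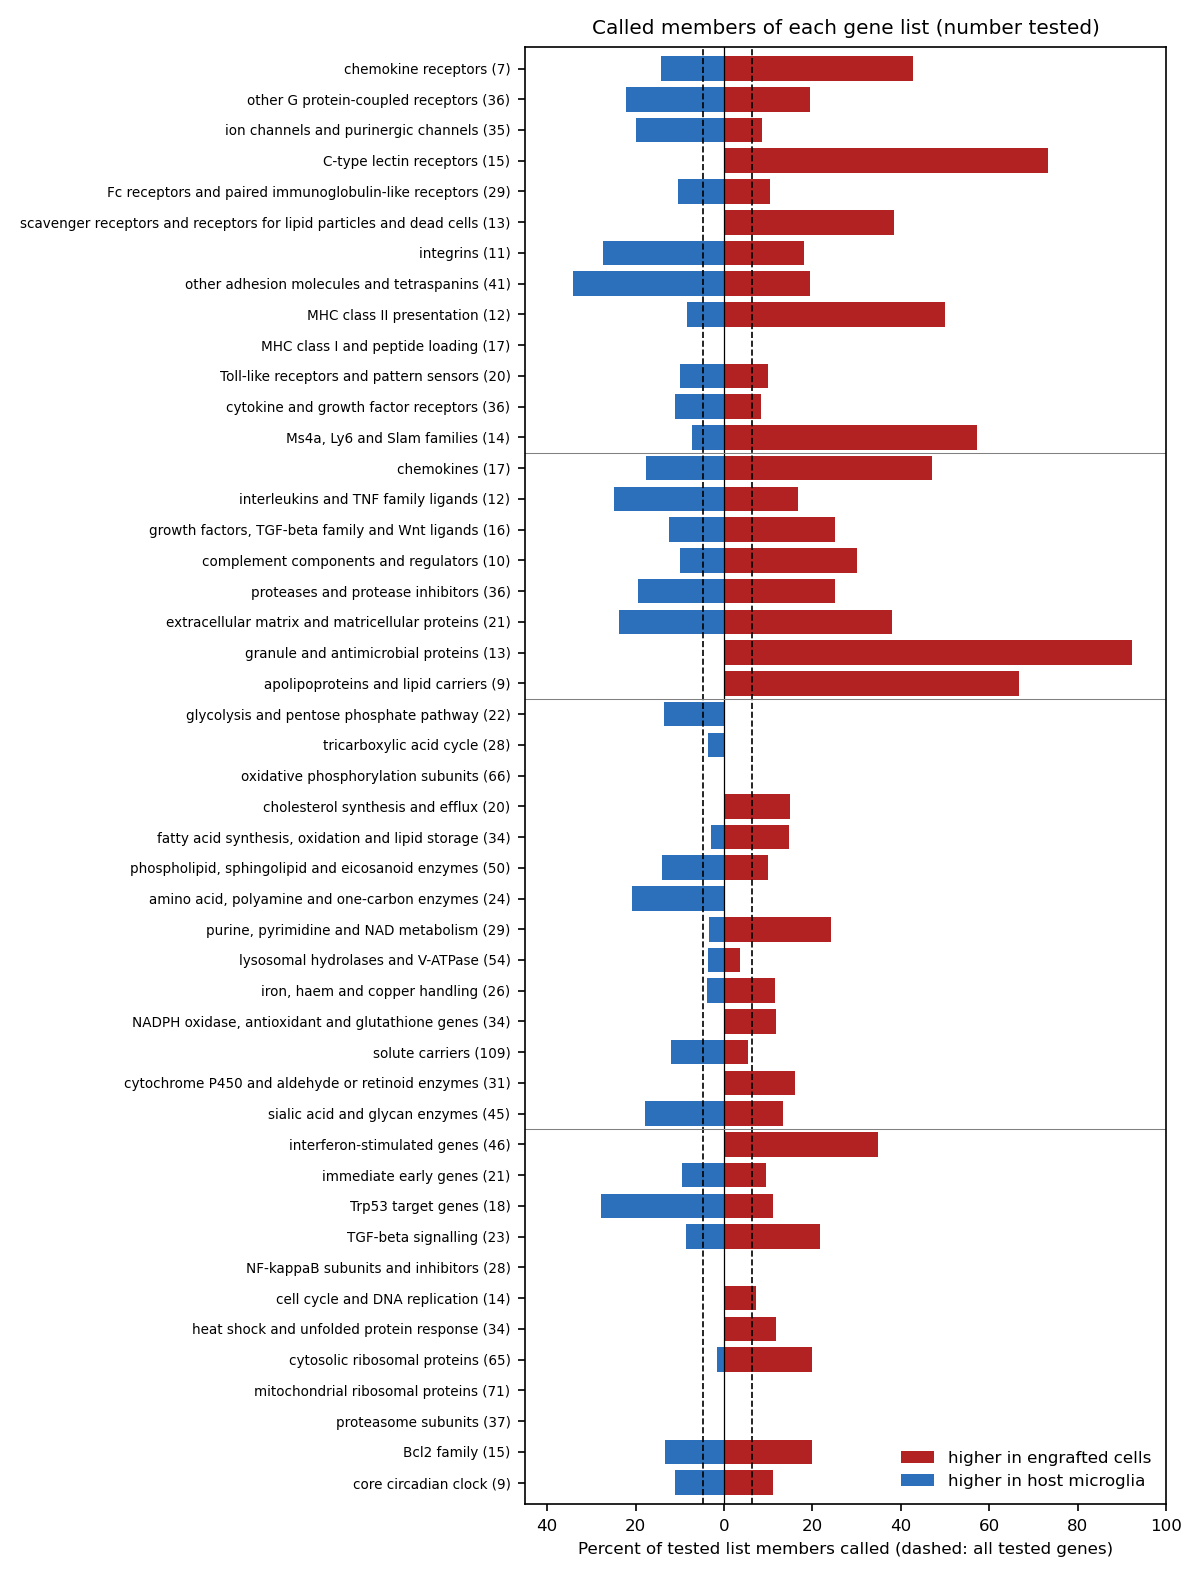
Percent of the tested members of each of 47 gene lists that were called higher in engrafted cells (red, to the right) or in host microglia (blue, to the left). The number tested is in brackets, grey lines separate surface, secreted, metabolic and pathway lists from top to bottom, and dashed lines give the 6.25% and 4.73% of all tested genes. Granule proteins (92.3%) and C-type lectins (73.3%) reach farthest right, and adhesion molecules and tetraspanins (34.1%) farthest left. Members nearly absent from one population could pass the filter on low counts only through the other.

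Receptors for chemokines and other G protein-coupled ligands differed strongly in both directions. Of 7 tested chemokine receptors 3 were higher in engrafted cells and 1 in the host. Cxcr4, the receptor for the retention chemokine Cxcl12, had 122, 86.8, 101 and 86.6 CPM in the engrafted cells of mice 5 to 8 and 3.07, 0.994, 4.02 and 1.04 in host microglia, a difference of 5.34 ± 0.31 on the log2 scale (adjusted p = 5.55e-13). All 4 engrafted values were above all 4 host values, which the rule for naming genes required. Ccr1, which binds inflammatory CC chemokines, had 161 ± 15.1 CPM against 20.8 ± 6.42 (2.95 ± 0.19), and the chemerin receptor Cmklr1 was lower, at 77.5 ± 13.9 against 160.1 ± 28.4 (-1.05 ± 0.16), a call that fell to -0.98 without the engrafted library of mouse 6 and to -0.93 without the host library of mouse 8. Of 36 other receptors of this superfamily 7 were higher in engrafted cells and 8 in host microglia. Ptger4, the EP4 receptor for prostaglandin E2, had 63.8, 72.3, 69.6 and 52.0 CPM in engrafted cells against 3.07, 0, 1.61 and 6.24 (4.55 ± 0.39, or 5.39 without the host library of mouse 8). Adgre5 (CD97) was at least 13.5-fold higher, the proton-sensing receptor Gpr65 differed by 3.93 ± 0.18, and the sphingosine 1-phosphate receptors S1pr2 and S1pr1 by 2.86 ± 0.30 and 1.77 ± 0.21. On the host side, the adenosine receptor gene Adora3 had 6.38, 19.9, 10.4 and 5.77 CPM in engrafted cells and 212, 174, 223 and 229 in host microglia. Gpr84, a receptor for medium-chain fatty acids, had 105, 63.3, 124 and 78.9 CPM against 668, 643, 821 and 736 (-2.94 ± 0.17, adjusted p = 2.67e-13). The adhesion receptor Adgrg1 (-2.62 ± 0.15), the complement C5a receptor C5ar1 (-1.92 ± 0.36), the hydroxycarboxylic acid receptor Hcar2 (-1.50 ± 0.36) and the nucleotide receptor P2ry13 (-1.17 ± 0.12) were also higher in the host, so the receptors lower in engrafted cells included those for purines, complement and metabolites.

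Ion channels were called mainly toward the host, 7 of 35 tested against 3 toward engrafted cells (5 without the host library of mouse 5). Kcnj12, an inward rectifier potassium channel, was without a read in the engrafted libraries and had 35.3, 31.8, 36.2 and 28.1 CPM in the host, at least 6.70-fold. Kcnk12, a 2-pore-domain potassium channel, had 4.25, 1.81, 5.22 and 11.5 CPM against 82.9, 90.4, 68.4 and 76.9 (-3.83 ± 0.30). The voltage-gated calcium channel subunits Cacna1a and Cacna1s had log2 fold changes of -2.96 and -2.58, at levels under 30 CPM in the host. Higher in engrafted cells were the calcium-activated potassium channel Kcnn4 (39.5 ± 12.2 against 6.24 ± 3.84 CPM, 2.50 ± 0.37) and the cation channel Trpv4 (1.45 ± 0.29). The voltage-gated proton channel Hvcn1, the member of highest level, stayed within 2-fold at 351 ± 11.5 against 595 ± 55.3 CPM.

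C-type lectin receptors, which bind glycans and damaged cells, were called toward engrafted cells. Of 15 tested, 11 were higher in engrafted cells. In the host direction none was called by edgeR or by DESeq2, and none had an unadjusted p below 0.05 either. Of 52 members with a read, 15 passed the filter on low counts. Members nearly absent from the host, such as Klra2 and Mgl2, could pass it only through the engrafted libraries. With at least 10 reads in every library, 4 were called toward engrafted cells. Leaving out the engrafted library of mouse 6, 7 or 8 added 1 call in the host direction. The median of the list was 2.15, against 0.02 over all genes. Klra2, an inhibitory member of the Ly49 family, had 35.1, 77.7, 27.8 and 34.6 CPM in engrafted cells and at most 0.804 in the host (at least 13.4-fold). The galactose-type lectin Mgl2 had 26.6, 101, 31.3 and 65.4 CPM against 0, 1.99, 0.804 and 0 (at least 17.1-fold). Their engrafted values spread widely among mice, with mouse 6 highest. None reached down to the host, which the rule for naming genes required. Clec4n (dectin-2) differed by 4.61 ± 0.63, Clec2i by 4.66 ± 0.51 (5.81 without the host library of mouse 5), and the beta-glucan receptor Clec7a by only 1.16 ± 0.16. In the Ms4a, Ly6 and Slam families, 8 of 14 tested genes were higher in engrafted cells (5 without the host library of mouse 8, and 5 when scaled by library totals) and 1, Slamf8 (-1.12 ± 0.23), in the host. Ms4a6c had 358 ± 25.4 CPM against 49.2 ± 10.4 (2.87 ± 0.16), Ms4a4c differed by 2.59 ± 0.27, and the self-ligand receptor Slamf7 was at least 7.92-fold higher.

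Fc and paired immunoglobulin-like receptors, which carry activating or inhibitory motifs, were called for 3 of 29 tested in each direction. That is 10.3% each way, against 6.25% and 4.73% of all genes. The list leaned toward the host, with 21 log2 fold changes negative, 8 positive and a median of -0.26. An unadjusted p below 0.05 was found for 10 genes toward the host and 3 toward engrafted cells. Lilrb4a, an inhibitory receptor, had 691, 763, 752 and 747 CPM in engrafted cells and 39.9, 44.7, 52.3 and 62.4 in the host (3.87 ± 0.15, adjusted p = 2.11e-16), and Cd200r4, of the CD200 receptor family, had 36.1 ± 5.63 against 1.30 ± 1.58 (4.42 ± 0.47, or 5.29 without the host library of mouse 7). The sialic acid receptor Siglecf had 2.13, 1.81, 1.74 and 3.85 CPM in engrafted cells and 33.8, 32.8, 40.2 and 37.4 in host microglia, at least 7.36-fold higher in the latter. Trem2, the lipid-sensing receptor with the highest level in this list, differed by -0.31 ± 0.10 (adjusted p = 0.0152), within 2-fold. Scavenger receptors and receptors for dead cells were called in 5 of 13 cases, each toward engrafted cells. No call was made toward the host by edgeR or DESeq2, 6 genes had an unadjusted p below 0.05 in that direction, and 1 was called there without the engrafted library of mouse 8. Cd36, which takes up oxidized lipoproteins and fatty acids, had 60.6, 83.2, 24.4 and 69.3 CPM against 0, 1.99, 0.804 and 1.04 (at least 18.1-fold), and Stab1 had 1283 ± 105 against 427 ± 51.0 (1.59 ± 0.12). The list median was -0.22.

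Adhesion genes were called in both directions. Among 11 integrins 2 were higher in engrafted cells and 3 in the host. Itga4, the alpha 4 chain that binds Vcam1 and fibronectin, had 134, 150.0, 129 and 115 CPM in engrafted cells against 6.14, 1.99, 2.41 and 4.16 in the host (5.23 ± 0.26, adjusted p = 2.77e-14), and Itgal, the alpha chain of LFA-1, had 33.0 ± 8.44 against 2.20 ± 2.18 (3.70 ± 0.45, or 4.40 without the host library of mouse 8). Itgb3, the beta 3 chain, had 7.44, 3.62, 1.74 and 7.70 CPM in engrafted cells and 69.1, 63.6, 83.7 and 80.0 in host microglia (-3.75 ± 0.30). The alpha M chain Itgam, which encodes the CD11b used in the gate, was at 318 ± 36.9 against 722 ± 54.4 CPM (-1.19 ± 0.12). Of 41 other adhesion molecules and tetraspanins, 8 were higher in engrafted cells and 14 in the host, and the summed CPM of the list was 6715 to 7491 in engrafted libraries and 17006 to 18768 in host libraries. Selplg, the P-selectin ligand PSGL-1, contributed most: 1071, 949, 1263 and 1161 CPM in engrafted cells and 7175, 7366, 6937 and 8363 in host microglia (-2.75 ± 0.11, adjusted p = 4.37e-16). The tetraspanins Cd9 (241 ± 41.9 against 1438 ± 198 CPM, -2.58 ± 0.14) and Cd81 (-1.98 ± 0.11) and the junctional adhesion molecules Jam2 (-3.71 ± 0.39) and Jam3 (-3.74 ± 0.59) were all lower in engrafted cells. Higher there were the hyaluronan receptor Cd44 (1.81 ± 0.38), Vcam1 (1.73 ± 0.18), and 5 genes of semaphorin signalling or co-reception, Plxnd1 (3.01 ± 0.47), Plxna1 (1.83 ± 0.33), Sema4a (1.88 ± 0.27), Sema6d (2.94 ± 0.50) and Nrp1 (1.65 ± 0.13). Without the engrafted library of mouse 5 Jam2 was at -4.57 and Jam3 at -3.15, without that of mouse 8 Jam3 was at -4.81, and without the host library of mouse 6 Plxnd1 was at 3.96 and Sema6d at 3.60. Another semaphorin gene, Sema4g (-1.66 ± 0.30), the plexin Plxna4 (-1.47 ± 0.22) and the co-receptor Nrp2 (-1.55 ± 0.30) went the other way.

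**Figure D3:**
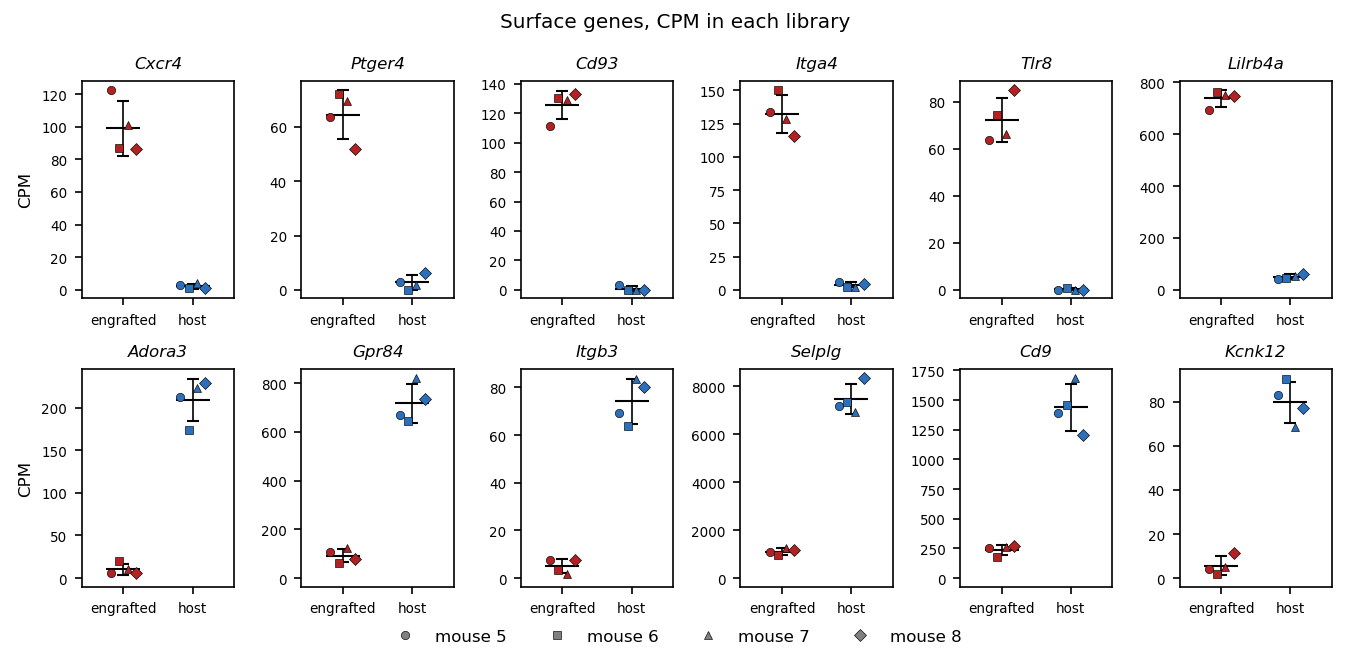
CPM (vertical, linear from 0) of 12 surface genes in each library, engrafted cells in red and host microglia in blue, with one marker shape per mouse and the mean ± SD in black (n = 4). The groups do not overlap in any panel, because the genes were chosen among those without overlap. The first 6 genes, Cxcr4 to Lilrb4a, are higher in engrafted cells, and the last 6, Adora3 to Kcnk12, are higher in host microglia.

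Antigen presentation by MHC class II was higher in engrafted cells for 6 of 12 tested genes. H2-Eb1, a class II beta chain, had 2998, 6687, 3909 and 5470.1 CPM in the engrafted cells of mice 5 to 8 and 20.0, 65.6, 32.2 and 30.1 in the host (6.97 ± 0.27, adjusted p = 2.07e-16). Ciita, the transactivator on which class II transcription depends, had 18.1, 75.9, 19.1 and 44.3 CPM and at most 0.804 in the host (at least 12.0-fold), and the costimulatory receptor Cd40 differed by 2.05 ± 0.24. Mice 6 and 8 had the 2 highest engrafted values of H2-Eb1 and of Ciita. One member went the opposite way: H2-Oa, a chain of the DO molecule that restrains peptide loading, had 20.2, 43.4, 27.8 and 28.9 CPM in engrafted cells and 98.3, 127, 134 and 121 in host microglia (-2.06 ± 0.20, adjusted p = 8.31e-09). MHC class I genes gave no call among 17 tested by edgeR or DESeq2, but 9 passed an adjusted p of 0.05 within 2-fold, 9 had an unadjusted p below 0.05 toward engrafted cells and none toward the host, and 1 was called without the host library of mouse 6 or of mouse 7. B2m, the class I light chain, had 4577 ± 471 against 3613 ± 782 CPM (0.34 ± 0.13). The H2 genes are near-identical copies of each other in part, so reads of single class I members are uncertain.

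Among 20 Toll-like receptors and pattern sensors 2 were higher in each population (10% each, against 6.25% and 4.73% of all genes). The count fell to 1 toward engrafted cells without the host library of mouse 5 or the engrafted library of mouse 8. It fell to 1 toward the host without the engrafted library of mouse 7. With library totals or no filter 1 was called toward engrafted cells, and with at least 10 reads in every library 1 was, and 0 toward the host. Tlr8, an endosomal sensor of RNA, had 63.8, 74.1, 66.1 and 84.7 CPM in engrafted cells and at most 0.994 in any host library, at least 22.01-fold. Tlr3, the sensor of double-stranded RNA, had 22.3, 12.7, 15.7 and 19.2 CPM in engrafted cells and 61.4, 75.5, 73.2 and 28.1 in the host (-1.73 ± 0.30). Its host values spread widely, with mouse 8 lowest at 28.1 CPM. Cytokine and growth factor receptors were called in 7 of 36 cases (19.4%, against 11.0% of all genes), and a further 10 passed an adjusted p of 0.05 within 2-fold. The interferon receptor chain Ifnar1 had 198, 209.7, 207 and 181 CPM in engrafted cells and 59.9, 53.7, 61.9 and 60.3 in the host (1.75 ± 0.13, adjusted p = 9.81e-11). The RANK gene Tnfrsf11a (1.29 ± 0.17) and the BMP9 receptor Acvrl1 (1.28 ± 0.14) were higher as well. The host was higher for the BMP receptor Bmpr1a (-2.65 ± 0.46), the TNF receptor superfamily members Tnfrsf21 (-1.41 ± 0.21) and Tnfrsf17 (-1.82 ± 0.36), and Il6st (-1.21 ± 0.16), the signalling chain shared by interleukin 6 family receptors.

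Secreted chemokines were called in 11 of 17 cases, 8 higher in engrafted cells and 3 in the host. Pf4, platelet factor 4, had 299, 401, 419 and 431 CPM in engrafted cells and 4.61, 3.98, 7.24 and 4.16 in host microglia (6.18 ± 0.22, adjusted p = 6.12e-17). Ccl8 had 23.4, 105, 15.7 and 42.3 CPM in engrafted cells, and was at least 14.2-fold higher, with mouse 6 highest. Cxcl14 differed by 3.87 ± 0.36 and the neutrophil-attracting Cxcl2 by 3.41 ± 0.30. Ccl4, an inflammatory CC chemokine, had 490.3, 555, 592 and 724 CPM in engrafted cells and 1828, 1400.2, 1582 and 1841 in the host (-1.50 ± 0.13), and Ccl9 was also lower in engrafted cells (-1.79 ± 0.20). Its neighbour Ccl3, the chemokine of highest level, did not pass the test at 1511 ± 159 against 1748 ± 129.7 CPM (-0.21 ± 0.11). Interleukins and TNF family ligands numbered 12 tested, with 2 higher in engrafted cells and 3 in the host. Il1a had 34.0, 14.5, 38.3 and 26.9 CPM in engrafted cells and 123, 153, 135 and 94.6 in host microglia (-2.12 ± 0.21), whereas Il1b, the other interleukin 1 agonist, had 64.9, 65.1, 50.5 and 92.4 and 29.2, 22.9, 22.5 and 29.1 (1.40 ± 0.22). The 2 interleukin 1 genes thus differed in opposite directions. Tnf had 148 ± 23.1 CPM against 436 ± 87.0 (-1.55 ± 0.16), lymphotoxin beta (Ltb) was lower in engrafted cells (-1.23 ± 0.25), and the B cell factor APRIL, encoded by Tnfsf13, was higher (1.50 ± 0.27).

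Growth factor genes were called in 6 of 16 cases. Igf1, insulin-like growth factor 1, had 163, 150.0, 141 and 131 CPM in engrafted cells and 1.54, 0.994, 6.44 and 2.08 in the host (5.50 ± 0.28, adjusted p = 3.78e-14, and 6.44 without the host library of mouse 7). Gdf3, of the TGF-beta family, had 44.7, 34.3, 67.9 and 75.1 CPM and was at least 16.9-fold higher. The host was higher for Pros1, the protein S bridge between apoptotic cells and TAM receptors (47.9 ± 4.59 against 168 ± 16.4 CPM, -1.81 ± 0.15), and for Csf1, a ligand of Csf1r (-1.57 ± 0.29). Grn, progranulin, was level between the populations within its error at 3388 ± 231 and 3509 ± 411 CPM (-0.05 ± 0.10). In the complement list, 3 of 10 tested genes were higher in engrafted cells, C4b (1.33 ± 0.20), C3 (1.71 ± 0.37) and properdin, Cfp (1.97 ± 0.41), and 1 was higher in the host. C3 in engrafted cells was 134, 28.9, 47.0 and 30.8 CPM, with mouse 5 far above the others, and without that library the log2 fold change was 0.84 and no longer called. C1qa, the member of highest level, differed by -0.11 ± 0.10 and did not pass the test.

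Proteases and their inhibitors included many of the largest differences, 9 of 36 higher in engrafted cells and 7 in the host. Besides Serpinb8 and Ctse, Adam33 (4.13 ± 0.38) and the membrane-bound matrix metalloprotease Mmp14 (167 ± 22.2 against 30.1 ± 2.29 CPM, 2.48 ± 0.16) were higher in engrafted cells. Ctsl, cathepsin L, had 302, 305, 320.2 and 312 CPM in engrafted cells and 1064, 1194, 1143 and 1247 in the host (-1.91 ± 0.11, adjusted p = 8.40e-13), Cst7, cystatin F, had 25.1 ± 13.3 against 127 ± 12.2 (-2.37 ± 0.22), and Adamts1 differed by -2.31 ± 0.27. Cystatin C, Cst3, the most abundant transcript of this list, had 14968, 17946, 18916 and 17299.6 CPM in engrafted cells and 31607, 32754, 26615 and 31759.8 in host microglia, a difference of -0.83 ± 0.10 (adjusted p = 2.02e-07) that was within 2-fold. Matrix and matricellular genes were called in 13 of 21 cases. Lgals1, the glycan-binding protein galectin-1, had 124, 175, 172 and 233 CPM against 10.8, 8.94, 8.04 and 10.4 (4.19 ± 0.23), galectin-3 (Lgals3) differed by 2.92 ± 0.24, Gpnmb was at least 11.1-fold and factor XIII A (F13a1) at least 14.9-fold higher in engrafted cells. The host was higher for Sparc, a collagen-binding glycoprotein, with 1281, 1108, 1251 and 929.6 CPM in engrafted cells and 5602, 5532, 5823 and 4149.9 in host microglia (-2.21 ± 0.12), for Ecscr (-4.09 ± 0.18), for the basement membrane gene Nid2 (-3.42 ± 0.35) and for Olfml3 (-1.50 ± 0.11).

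Granule and antimicrobial genes had the highest share of calls, 12 of 13 tested, each higher in engrafted cells. Of 35 members with a read, 13 passed the filter on low counts. Members nearly absent from the host, such as S100a8 and Chil3, could pass it only through the engrafted libraries. For these the direction of a call was fixed by the filter. Toward the host there was no call by edgeR or DESeq2 and no unadjusted p below 0.05, and the list median was 3.45. This group is not a separate observation from the neutrophil markers given above, because 3 of its tested members (Camp, S100a8 and S100a9) are themselves on that marker list. Ngp and Ltf, given below, are on it too, and Chil3 is on the monocyte marker list. The calprotectin subunit S100a8 had 70.2, 143, 266 and 84.7 CPM in engrafted cells and at most 1.04 in the host. The cathelicidin Camp had 35.1, 30.7, 162 and 25.02 CPM with mouse 7 highest, and the granule proteins Ngp (72.3, 108, 219 and 11.5 CPM) and Ltf (24.5, 34.3, 95.7 and 7.70 CPM), which were below the filter, were also highest in mouse 7. The chitinase-like gene Chil3 had 22.3, 19.9, 36.5 and 15.4 CPM and no host read (at least 7.18-fold). The part of neutrophils and monocytes in the granule result was not tested. Lipid carriers were called in 6 of 9 cases, each time toward engrafted cells. One of the 6 is the choroid plexus transcript Ttr, whose call rested on the engrafted library of mouse 8, which was also highest for the choroid plexus markers. The other 5 had no overlap between the populations, and toward the host none was called by edgeR or DESeq2 or had an unadjusted p below 0.05. Pltp, the phospholipid transfer protein, had 257, 275, 291 and 269 CPM in engrafted cells and 9.22, 7.95, 11.3 and 13.5 in the host (4.66 ± 0.18, adjusted p = 1.38e-16), and Apoc2, the activator of lipoprotein lipase, was at least 15.4-fold higher, although its reads overlap those of an annotated Apoc4-Apoc2 read-through gene. The siderophore-binding Lcn2 was at 30.8, 79.5, 131 and 28.9 CPM against 0, 3.98, 13.7 and 21.8 (2.59 ± 0.48, or 3.18 without the host library of mouse 8), again highest in the engrafted cells of mouse 7.

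**Figure D4:**
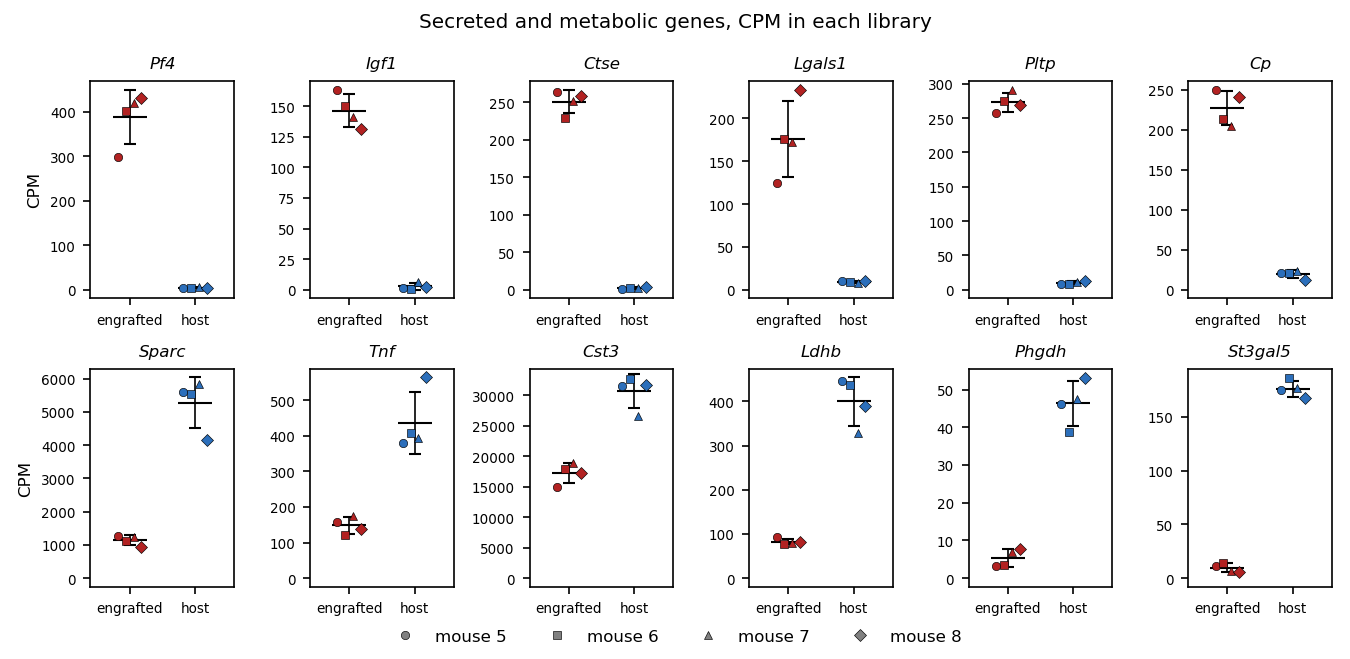
CPM (vertical, linear from 0) of 12 secreted and metabolic genes in each library, engrafted cells in red and host microglia in blue, with one marker shape per mouse and the mean ± SD in black (n = 4). Pf4 to Cp are higher in engrafted cells and Sparc to St3gal5 higher in host microglia, without overlap. Except for Cst3, the genes were chosen among those without overlap. Cst3 differs by less than 2-fold.

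In central carbon metabolism, oxidative phosphorylation and the tricarboxylic acid cycle gave few calls (0% and 3.57% of tested genes, against 11.0% of all). Oxidative phosphorylation subunits gave no call among 66 tested by edgeR or DESeq2, while 18 had an unadjusted p below 0.05 toward engrafted cells and 2 toward the host. The list had a median of 0.16 and all values between -0.68 and 0.87, and 2 genes were called without the engrafted library of mouse 5 and 1 without the engrafted library of mouse 7 or the host library of mouse 5. The tricarboxylic acid cycle list had 1 call among 28, Pdk1, the kinase that inhibits pyruvate dehydrogenase, with 15.95, 12.7, 20.9 and 21.2 CPM in engrafted cells and 73.7, 68.6, 61.1 and 58.2 in the host (-1.89 ± 0.23). Glycolysis and the pentose phosphate pathway had 3 calls among 22, all toward the host (13.6%, against 4.73% of all genes in that direction). There 9 genes had an unadjusted p below 0.05. Toward engrafted cells edgeR and DESeq2 called none, 2 genes had an unadjusted p below 0.05, and 1 was called without the engrafted library of mouse 6 or of mouse 8. Ldhb, the lactate dehydrogenase chain that favours pyruvate formation, had 92.5, 77.7, 80.1 and 80.8 CPM in engrafted cells and 447, 437, 327 and 389 in host microglia (-2.26 ± 0.15, adjusted p = 7.06e-12). The lactate exporter Slc16a3 (-1.60 ± 0.16) and Pfkfb3, which makes the activator of phosphofructokinase (-1.04 ± 0.17), were the other two, and Pfkfb3 was at -0.98 and not called without the engrafted library of mouse 5 or of mouse 6 and at -0.95 without the host library of mouse 5. In this list 17 of 22 log2 fold changes were negative, and its summed CPM was 2670 to 2899 in engrafted libraries and 3304 to 3796 in host libraries.

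Of 24 amino acid, polyamine and one-carbon genes 5 were higher in the host and none in engrafted cells by edgeR or DESeq2, though 4 had an unadjusted p below 0.05 in that direction. Phgdh, the first enzyme of serine synthesis, had 3.19, 3.62, 6.96 and 7.70 CPM in engrafted cells and 46.1, 38.8, 47.5 and 53.0 in host microglia (-3.16 ± 0.33, adjusted p = 3.81e-08). Psat1, the second enzyme, had 3.19, 5.42, 5.22 and 5.77 and 33.8, 26.8, 38.6 and 31.2 (-2.77 ± 0.36). Psph, the third enzyme, was below the filter at 12.8, 12.7, 12.2 and 7.70 and 21.5, 7.95, 9.65 and 18.7 CPM, and the groups overlapped. The mitochondrial folate enzyme Mthfd2 (-1.47 ± 0.34) and the spermidine synthase Srm (-1.39 ± 0.15) were lower in engrafted cells too. Shmt2, the next step from serine, was at 39.7 ± 5.43 and 61.1 ± 15.4 CPM (-0.60 ± 0.21) and within 2-fold, and Atf4, a transcription factor known to drive these genes, was at 832 ± 112 and 892 ± 77.1 CPM (-0.10 ± 0.12). Solute carriers, which move nutrients across membranes, were called in 19 of 109 cases, 6 toward engrafted cells and 13 toward the host. Without the host library of mouse 5 the former number was 10, and without the engrafted library of mouse 6 it was 11. Slc1a3, the glutamate and aspartate transporter GLAST, had 11.7, 10.8, 3.48 and 15.4 CPM in engrafted cells and 241, 197, 229 and 179 in the host (-4.32 ± 0.22). Slc1a3 is also a marker of astrocytes. Their other markers were low in both populations, with Gfap at most 1.54 CPM, Aqp4 at most 9.22, Gja1 at most 6.14 and Aldh1l1 at most 10.8 in any library, and their part in the Slc1a3 difference was not tested. The amino acid carrier Slc38a6 had 392, 300.1, 339 and 346 CPM in engrafted cells and 59.9, 61.6, 68.4 and 61.3 in the host (2.45 ± 0.15), the sulfate carrier Slc26a11 differed by 2.96 ± 0.28 and the hexose carrier family member Slc2a6 by 1.75 ± 0.23.

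Lipid metabolism differed gene by gene. In the cholesterol list none of 20 tested genes was higher in the host by edgeR or DESeq2 (3 had an unadjusted p below 0.05 in that direction, and 1 was called without the host library of mouse 5), and 3 were higher in engrafted cells: the sterol 27-hydroxylase Cyp27a1 (270.5 ± 10.6 against 72.8 ± 15.5 CPM, 1.89 ± 0.15), the efflux pump Abca1 (295, 315, 338 and 341 CPM against 124, 159, 150.4 and 83.1, 1.31 ± 0.16) and the 25-hydroxylase Ch25h (1.06 ± 0.27). The call of Ch25h was lost without the engrafted library of mouse 7 (0.94) or the host library of mouse 5 (0.98) or 8 (0.87), with library totals (0.98) and with all 16 libraries. None of these 3 belongs to the synthesis of cholesterol itself. Lipid droplet coats Plin3 (1.93 ± 0.28) and Plin2 (1.17 ± 0.27) and the acyl-CoA synthetase Acsl3 (1.81 ± 0.36) were higher in engrafted cells, and the monoacylglycerol lipase Mgll, which also degrades an endocannabinoid, was lower (75.8 ± 3.60 against 215 ± 32.6 CPM, -1.49 ± 0.15). Of 50 phospholipid, sphingolipid and eicosanoid enzymes 5 were higher in engrafted cells and 7 in the host. Pla2g7, which inactivates platelet-activating factor, had 129, 94.0, 81.8 and 117 CPM in engrafted cells against 7.68, 3.98, 7.24 and 4.16 (4.19 ± 0.26). Ltc4s, the leukotriene C4 synthase, had 609, 529.6, 675 and 558 CPM in engrafted cells and 1856, 1449, 1705 and 1615 in the host (-1.48 ± 0.12, adjusted p = 2.09e-10), and Pla2g4a, which releases arachidonic acid (-1.40 ± 0.21), Lpcat3, which places it into phospholipids (-1.55 ± 0.16), and Dagla, which makes the substrate of Mgll (-1.38 ± 0.23), were also lower in engrafted cells.

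Glycan enzymes were exchanged in pattern, 6 of 45 higher in engrafted cells and 8 in the host. St3gal5, the synthase of the ganglioside GM3, had 11.7, 14.5, 6.96 and 5.77 CPM in engrafted cells and 175, 186, 177 and 167 in host microglia (-4.12 ± 0.21, adjusted p = 2.74e-14). Other sialyltransferases went the opposite way, with St3gal1 at 50.0, 54.2, 27.8 and 52.0 CPM against 3.07, 3.98, 4.83 and 1.04 (3.72 ± 0.38) and St8sia4, which makes polysialic acid, at 67.5 ± 9.14 against 6.87 ± 1.12 (3.28 ± 0.27). B3gnt8, an extender of N-glycans, was higher in engrafted cells (3.79 ± 0.25), and the sulfotransferases Chst8 (at least 6.82-fold) and Chst1 (-2.25 ± 0.16) and the galactosyltransferase B4galt4 (-2.10 ± 0.18) were higher in the host.

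The iron, redox and purine lists each had more calls toward engrafted cells than toward the host. Of all tested genes 6.25% and 4.73% were called in these directions. The iron, haem and copper list had a median of -0.02, with 14 of 26 log2 fold changes negative. Of its genes 3 (11.5%) passed toward engrafted cells. That number was 5 without the engrafted library of mouse 6 or 7 or the host library of mouse 8. The 3 genes were Cp, Blvrb and Lcn2. Lcn2 is also counted among the lipid carriers above and was highest in the engrafted cells of mouse 7. Hebp1 (-1.05 ± 0.19) was the 1 gene of this list (3.85%) higher in the host. It was at -0.91 and not called without the engrafted library of mouse 7 and at -0.98 without the host library of mouse 7. Cp, the ferroxidase ceruloplasmin, had 249.9, 213, 205 and 241 CPM in engrafted cells and 21.5, 20.9, 24.1 and 12.5 in host microglia (3.51 ± 0.17, adjusted p = 1.80e-14), and Blvrb, a reductase of haem breakdown, had 225 ± 47.8 against 99.3 ± 19.1 (1.15 ± 0.17). Of 34 oxidase, antioxidant and glutathione genes 4 (11.8%) were higher in engrafted cells. None was higher in the host by edgeR or DESeq2, where 4 had an unadjusted p below 0.05. Mgst1, a membrane glutathione transferase, had 51.0, 45.2, 48.7 and 44.3 CPM and was at least 14.4-fold higher, and Gstm1 (1.68 ± 0.31) and Prdx1 (1.28 ± 0.17) followed. In the purine, pyrimidine and NAD list 7 of 29 (24.1%) were higher in engrafted cells. Among them were Xdh, which makes uric acid (28.4 ± 10.9 against 3.61 ± 0.540 CPM, 2.86 ± 0.41), Enpp1 (1.49 ± 0.31) and the deoxycytidine kinase Dck (1.39 ± 0.32). The ATP-degrading ectoenzyme Entpd1 (CD39) was the 1 gene of this list higher in the host, with 231, 215, 228 and 139 CPM in engrafted cells and 508, 497, 515 and 423 in host microglia (-1.25 ± 0.15). Of 54 lysosomal hydrolases and proton pump subunits 4 were called (7.41%, against 11.0% of all genes), and a further 10 passed an adjusted p of 0.05 within 2-fold. The summed CPM of the list was 15136 to 16249 in engrafted libraries and 16467 to 18943 in host libraries. The called genes were Galc, which degrades galactosylceramide (97.2 ± 17.6 against 27.5 ± 6.00 CPM, 1.85 ± 0.20), and the heparan N-sulfatase Sgsh (1.54 ± 0.17), both higher in engrafted cells, and the pump subunits Atp6v0a2 (-1.28 ± 0.16) and Atp6v1c1 (-1.08 ± 0.13), both lower.

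Interferon-stimulated genes were higher in engrafted cells for 16 of 46 tested, with none higher in the host by edgeR or DESeq2 (1 had an unadjusted p below 0.05 in that direction) and a list median of 0.82. Ifi203, of the interferon-inducible HIN-200 family on chromosome 1, had 138, 181, 158 and 154 CPM in engrafted cells and 1.54, 2.98, 0.804 and 3.12 in the host (at least 48.1-fold). Ifi47, a GTPase, had 70.2, 57.8, 87.0 and 52.0 CPM against 1.54, 7.95, 9.65 and 2.08 (3.48 ± 0.33), and the antiviral membrane gene Ifitm2 had 85.1 ± 20.5 against 6.37 ± 3.44 (3.61 ± 0.29). Tetherin, Bst2, had 1797 ± 215 against 444 ± 74.2 (2.01 ± 0.13), and Irf7, the regulator of type I interferon genes, had 175, 137, 193 and 194 against 75.3, 72.5, 88.5 and 90.4 (1.09 ± 0.14). Most of the list leaned the same way, with 37 of 46 log2 fold changes positive and 9 negative. An unadjusted p below 0.05 was found for 29 genes toward engrafted cells. Of the 30 list members that were not called, 11 passed an adjusted p of 0.05 within 2-fold. Others of the 30 were genes at the centre of the classical response. Isg15, the ubiquitin-like modifier, had 52.1, 54.2, 55.7 and 53.9 CPM in engrafted cells and 32.3, 49.7, 63.5 and 61.3 in the host (0.02 ± 0.20), and the RNA-binding Ifit1 had 27.7, 12.7, 15.7 and 9.62 and 30.7, 16.9, 20.9 and 9.35 (-0.10 ± 0.37). The groups overlapped for both.

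Promoter sequence was examined for this list, with its called members set beside those not called. The latter are not an unchanged group, since part of them also differed within 2-fold. Interferon-induced transcription factors bind a repeat searched here as GAAANNGAAA on both strands, in a window from 250 bases before to 50 bases after the transcription start (RefSeq, GRCm38.p6, first window listed per gene). Promoters were matched for 6320 of the 8042 tested genes, and 3.15% of them held the repeat. It was present in 4 of 11 matched promoters of the called interferon-stimulated genes (36.4%) and in 15 of 23 of those not called (65.2%), and allowing any listed window gave 45.5% and 65.2%. In all, 5 promoters are shown, 2 of called genes without a match, 1 of a called gene with 2 matches and 2 of genes that were not called, in lower case with matches in capitals.
Ifi203, chromosome 1, chr1:173942623-173942922, minus strand: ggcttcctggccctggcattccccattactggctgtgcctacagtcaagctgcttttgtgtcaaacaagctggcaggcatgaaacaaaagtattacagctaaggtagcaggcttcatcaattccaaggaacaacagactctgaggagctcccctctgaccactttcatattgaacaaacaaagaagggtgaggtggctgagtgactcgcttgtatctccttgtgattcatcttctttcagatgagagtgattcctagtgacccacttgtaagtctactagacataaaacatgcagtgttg
Ifi47, chromosome 11, chr11:49076337-49076636, plus strand: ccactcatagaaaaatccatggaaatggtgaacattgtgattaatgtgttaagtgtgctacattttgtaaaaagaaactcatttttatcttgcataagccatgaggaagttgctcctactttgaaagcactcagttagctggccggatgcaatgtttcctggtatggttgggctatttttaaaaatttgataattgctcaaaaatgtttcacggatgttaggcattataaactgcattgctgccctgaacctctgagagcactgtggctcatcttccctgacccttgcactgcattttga
Ifitm3, chromosome 7, chr7:141010695-141010994, minus strand: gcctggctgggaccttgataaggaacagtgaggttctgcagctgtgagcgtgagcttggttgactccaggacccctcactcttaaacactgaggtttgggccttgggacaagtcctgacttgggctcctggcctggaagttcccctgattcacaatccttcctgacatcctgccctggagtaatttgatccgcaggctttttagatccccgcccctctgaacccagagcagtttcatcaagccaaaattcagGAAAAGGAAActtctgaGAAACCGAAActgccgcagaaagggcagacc
Isg15, chromosome 4, chr4:156200769-156201068, minus strand: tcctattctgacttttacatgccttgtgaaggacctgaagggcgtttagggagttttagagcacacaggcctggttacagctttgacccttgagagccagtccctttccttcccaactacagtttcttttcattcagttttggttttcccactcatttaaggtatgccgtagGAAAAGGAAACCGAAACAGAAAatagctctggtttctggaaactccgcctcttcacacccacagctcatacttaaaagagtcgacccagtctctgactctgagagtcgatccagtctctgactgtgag
Ifit1, chromosome 19, chr19:34640639-34640938, plus strand: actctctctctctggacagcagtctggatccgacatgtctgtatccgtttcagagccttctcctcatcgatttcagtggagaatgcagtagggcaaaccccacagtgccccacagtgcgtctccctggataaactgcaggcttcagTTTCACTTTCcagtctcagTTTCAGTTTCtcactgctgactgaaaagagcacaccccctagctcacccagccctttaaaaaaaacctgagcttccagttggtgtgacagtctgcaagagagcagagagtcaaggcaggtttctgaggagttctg
Ifitm3, an antiviral membrane protein, differed by 2.06 ± 0.21, while Isg15 and Ifit1, with overlapping or paired repeats, were level within their error. A match is a string of letters and not a measured site.

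Other short motifs were counted in the same windows as a description. An AP-1 motif (TGANTCA) was in 7.79% of the 385 matched promoters of genes called higher in engrafted cells, 4.84% of the 289 of genes called higher in the host and 4.72% of all. The MEF2 letters CTANNNNTAG were in 2.08%, 5.88% and 3.01%, the RUNX letters TGTGGT in 15.6%, 12.8% and 12.0%, and the TATA box TATAAA in 11.2%, 9.00% and 6.58%. The C/EBP letters TTGCNNAA were in 10.1%, 8.65% and 8.21%, and the ETS letters GGAAGT in 28.1%, 28.0% and 31.7%.

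The p53 target list leaned toward the host, with 5 of 18 tested higher there and 2 higher in engrafted cells. The latter number was 1 with the mouse as a block, and 1 without the engrafted library of mouse 5 or the host library of mouse 6 or 7. Cdkn1a, the cell cycle inhibitor p21, had 171, 127, 165 and 156 CPM in engrafted cells and 1992, 1496, 1201 and 2079 in host microglia (-3.44 ± 0.16, adjusted p = 8.75e-15). Phlda3, an inhibitor of Akt, had 4.25, 1.81, 1.74 and 1.92 and 70.7, 38.8, 45.9 and 50.9 (-4.15 ± 0.39), and Ccng1 (-1.47 ± 0.25) and the pro-apoptotic Bbc3 (27.5 ± 2.10 against 73.2 ± 9.75 CPM, -1.42 ± 0.20) were also higher in the host. Bax, another pro-apoptotic target, had 199.9, 169.9, 171 and 173 CPM and 326, 359.7, 368 and 363 (-0.98 ± 0.13, adjusted p = 1.59e-06), just short of 2-fold, and passed 2-fold without either library of mouse 5 (-1.04 without the engrafted one, -1.03 without the host one) and with library totals (-1.06) or no filter (-1.04). Not every target moved: Mdm2, the negative regulator of p53, was at 104 ± 15.98 and 106 ± 18.7 CPM (-0.00 ± 0.16), and Sesn1 was higher in engrafted cells (1.45 ± 0.14). Only the host cells had been irradiated in place, so origin and irradiation cannot be told apart for this list.

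In TGF-beta signalling 5 of 23 tested genes (21.7%) were higher in engrafted cells and 2 (8.70%) in the host, against 6.25% and 4.73% of all genes. Pmepa1, a feedback inhibitor of this pathway, had 4219, 3759.9, 4173 and 3836 CPM in engrafted cells and 1709.6, 1498, 1747 and 1487 in the host (1.31 ± 0.10, adjusted p = 1.53e-10), Tgfbi had 369.9 ± 79.8 against 60.8 ± 4.45 (2.59 ± 0.17), and the pseudoreceptor Bambi (2.33 ± 0.43) and the latency protein Ltbp3 (2.26 ± 0.40) were also higher. Endoglin, Eng, a co-receptor, was lower (108 ± 33.2 against 362 ± 31.3 CPM, -1.76 ± 0.17). Immediate early genes, which respond within minutes to cell handling as well as to signals, were abundant in both populations, with summed CPM of 26859 to 30217 in engrafted and 21600 to 27580 in host libraries. Of 21 tested, 2 were higher in engrafted cells (1 without the host library of mouse 7 or with library totals). The host was higher for 2, Egr2 (-1.79 ± 0.24) and Dusp2 (-1.35 ± 0.20). Each count was 9.52% of the list, against 6.25% and 4.73% of all genes in these directions. Heat shock and unfolded protein genes were called in 4 of 34 cases (11.8%, against 11.0% of all genes), each toward engrafted cells. The list median was -0.17, and 12 genes had an unadjusted p below 0.05 in each direction. Toward the host edgeR and DESeq2 called none, and 1 was called without the engrafted library of mouse 7 or the host library of mouse 8. The inducible chaperone Hspa1a had 3793, 2133, 2624 and 2471 CPM against 820.2, 713, 655 and 688 (1.94 ± 0.14), its near-identical copy Hspa1b differed by 2.08 ± 0.18 and cannot be told apart from it with certainty, and the co-chaperone Hsph1 followed (1.75 ± 0.24).

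Cytosolic ribosomal protein genes were shifted together, with 60 of 65 tested above 0, 13 called higher in engrafted cells (21 without the engrafted library of mouse 5) and 1, Rps4l (-2.17 ± 0.31, or -2.86 without the same library), in the host (2 without it), and a median of 0.69. Rps24 had 396, 846, 811 and 891 CPM in the engrafted cells of mice 5 to 8 and 241, 232, 213 and 159 in the host (1.80 ± 0.19, adjusted p = 3.57e-08). Mouse 5, the deepest engrafted library, was lowest for Rps24, Rpl35a (21.3, 61.5, 62.6 and 67.4 CPM) and Rplp2 (77.6, 213, 202 and 216 CPM). The summed CPM of the list was 18046 to 32274 in engrafted and 15885 to 17692 in host libraries, and many of these genes have processed copies in the genome that can take part of their reads. By contrast, mitochondrial ribosomal proteins (71 tested, median 0.00), proteasome subunits (37 tested, median -0.05) and NF-kappaB subunits and inhibitors (28 tested, median -0.01) had no call by edgeR or DESeq2. Unadjusted p-values below 0.05 were found toward engrafted cells and toward the host for 5 and 9, 3 and 4, and 5 and 6 of their genes, and 1 gene of the NF-kappaB list was called without the host library of mouse 5 or the engrafted library of mouse 6 or 7. The anti-apoptotic Mcl1 did not pass the test (0.23 ± 0.11), and of 15 genes of the Bcl2 family 10 were not called. Bcl2a1a (-1.06) and Bcl2a1b (1.21) are near-identical copies with opposite signs, so their values are uncertain, and the call of Bcl2a1a was lost without the engrafted library of mouse 5 (-0.84) or the host library of mouse 5 (-0.98) or 7 (-0.81). In the clock list Arntl, the activator, was higher (1.50 ± 0.33) and its repressor Bhlhe41 lower (-1.28 ± 0.21) in engrafted cells, while the remaining 7 of 9 genes were not called. The count toward engrafted cells was 2 without the engrafted library of mouse 5, 6 or 7 or the host library of mouse 5 or 7.

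The engrafted libraries held a few genes that varied strongly from mouse to mouse. The median coefficient of variation was 0.149 in engrafted cells (over 3780 genes averaging 50 CPM or more) and 0.133 in host microglia (3702 genes). Among the most variable called genes were the granule genes Camp and S100a9 and the complement gene C3, described above, and several known products of other tissues, named after their values were seen. Pth, the parathyroid hormone gene, had 858, 175, 15.7 and 433 CPM in the engrafted cells of mice 5 to 8 and 4.61, 67.6, 8.04 and 4.16 in the host microglia (4.10 ± 0.68, adjusted p = 3.70e-05). Chga, chromogranin A of neuroendocrine granules, ran in step with it at 958, 221, 3.48 and 414 and 12.3, 96.4, 17.7 and 12.5 CPM (3.51 ± 0.67). Without the engrafted library of mouse 5 the log2 fold changes were 3.23 for Pth and 2.56 for Chga, and without the host library of mouse 6 they were 5.96 and 4.79. Both genes were highest in mouse 5 among the engrafted cells and in mouse 6 among the host microglia. Haemoglobin alpha, Hba-a1, had 3.19, 14.5, 15.7 and 1715 CPM in engrafted cells and 15.4, 16.9, 1.61 and 202 in the host, and the choroid plexus transcript Ttr had 288, 1175, 567 and 2312 and 92.2, 280.2, 343 and 930.2, with mouse 8 highest in both populations. Without the engrafted library of mouse 8 the log2 fold change of Hba-a1 went from 2.85 to -2.57 and that of Ttr from 1.38 to 0.68, so both calls rest on that library. Without the host library of mouse 8 they were at 5.35 and 2.14. The calls of both genes were also lost without the host library of mouse 5, 6 or 7, with DESeq2 and with all 16 libraries, and that of Ttr without the engrafted library of mouse 6. Decorin, Dcn, a fibroblast product below the filter, had 184, 10.8, 5.22 and 17.3 CPM in engrafted cells with mouse 5 highest. These genes are products of the parathyroid gland, red blood cells, choroid plexus and connective tissue, and their part in the other differences was not tested. MHC class II shared the spread, with H2-Ab1 at 7414, 16278, 7959.8 and 13956 CPM in engrafted cells, but every value stayed far above the host (121, 319, 236 and 189).

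**Figure D5:**
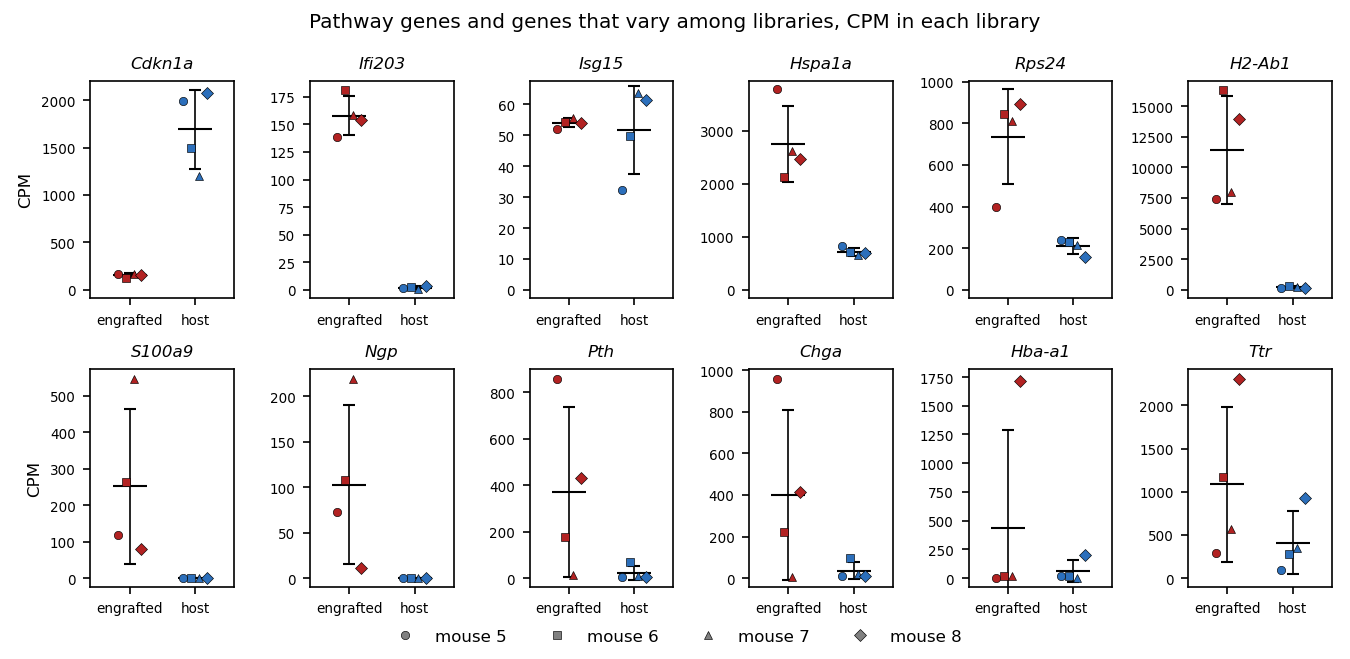
CPM (vertical, linear from 0) of 12 genes in each library, engrafted cells in red and host microglia in blue, with one marker shape per mouse and the mean ± SD in black (n = 4). SD bars that would pass below 0 are cut at the axis. Cdkn1a is higher in host microglia, Isg15 overlaps, Hba-a1 is raised in mouse 8, and Pth, Chga and Ttr vary widely among the engrafted libraries.

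The donor strain carries a different allele of Ptprc, so genes near it on chromosome 1 were counted separately. Within 10 Mb of Ptprc, 53 genes were tested and 8 were called (15.1%), 4 in each direction, against 12.9% of the 465 tested genes of chromosome 1 and 11.0% of all. Among the 8 were Cxcr4, Ctse and Phlda3. Whether linked sequence differences between donor and host contribute to these was not tested.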

How the data were processed

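RNA from sorted brain myeloid cells was sequenced as 3′-end libraries by a protocol derived from MARS-seq, and the sorts of both populations came from the same animals. Reads were mapped to mm9 by the authors (HISAT 0.1.5 per their processing notes, another release in the methods), kept when unique, and deposited as raw counts per gene over the exons of one RefSeq transcript model, on the sense strand, made with HOMER. No step that collapses molecular identifiers is named, so 3-read limits cover counting error only. A total of 0 columns lacked a sample, and only the 8 libraries of mice 5 to 8 were compared.

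The counts were tested with edgeR 4.0.16 (R 4.3.3; limma 3.58.1) by its quasi-likelihood test after filterByExpr (minimum count 10, minimum total 15) and TMM scaling, with Benjamini-Hochberg adjustment over all tested genes. Genes were called when they differed by more than 1 on the log2 scale at an adjusted p below 0.05. CPM came from effective library sizes. The SE of a log2 fold change was its absolute value divided by the square root of the F statistic of the test. It is approximate, above all for genes with few reads in one population. On simulated data of 8042 genes with 200 changed 4-fold, 187 were recovered and 2 of 189 calls were false. Mouse numbers pair the libraries because both sorts came from the same animal, although the correlation of same-mouse deviations was only 0.0247, -0.0402, 0.0258 and 0.0752 for mice 5 to 8. The main model had no mouse term, since the methods name none. Alternatives were a mouse block, other scaling (RLE or library totals), other filters, all 16 libraries, DESeq2 1.42.0 and each library left out. P-values measure the spread between these animals.

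The gene lists and the genes compared were chosen with earlier results of these data known. Named genes were the 12 called genes per direction of largest difference with at least 50 CPM and no overlap, leaving out genes that the study's text names, and in each list up to 4 per direction with at least 20 CPM and no overlap, plus the member of highest level. Genes outside that rule (Aldh1l1, Aqp4, Atf4, Bax, Bmpr1a, Cd40, Cd44, Cd81, Cenpa, Chga, Clec2i, Clec4n, Clec7a, Dcn, Gfap, Gja1, Hba-a1, Hcar2, Ifit1, Ifitm3, Irf7, Isg15, Jam3, Ltf, Ly6g, Mdm2, Ngp, Nrp1, Nrp2, P2ry12, P2ry13, Plxna4, Psph, Pth, Ptprc, S1pr1, Sema4g, Shmt2, Tmem119, Ttr and Vcam1) were named after their values were seen or as defining members of a list. Some genes are not reported here.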

Additional observations from a re-analysis of the deposited data

Results flagged for a closer look

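In 24 of 352 groups of 4 libraries examined over the named genes (those with a library at 20 CPM or more), 1 library lay far from the other 3 by Dixon's criterion at the 95% level. Chance would give about 1 such group in 20 among genes chosen without sight of their values. Some of these genes were named after their values were seen, so that rate does not apply to them. Whether the count differs from chance was not tested, and no pattern is read from it. The values are in CPM. The engrafted library of mouse 5 was the high one for the adhesion receptor Adgrg1 (148), the pro-apoptotic Bax (199.9), the fibroblast product Dcn (184) and the sulfatase Sgsh (138), and the low one for the lipid droplet gene Plin2 (30.8) and the ribosomal protein genes Rpl35a (21.3), Rplp2 (77.6) and Rps24 (396). The engrafted library of mouse 6 was high for Klra2 (77.7). That of mouse 7 was high for Camp (162) and low for St3gal1 (27.8). That of mouse 8 was high for Adam33 (73.1), Hba-a1 (1715) and Lgals3 (275) and low for Entpd1 (139).

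Among the host libraries, mouse 6 was high for the neuroendocrine genes Chga (96.4) and Pth (67.6) and for Dcn (25.8), mouse 7 for Cd40 (28.2) and Il6st (173), and mouse 8 for Fscn1 (491), Hba-a1 (202), Lgals3 (31.2) and Tnf (565). Hba-a1 and Lgals3 were set apart by mouse 8 in both populations.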

How the results depend on the processing

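Of 503 genes called toward engrafted cells and 380 toward the host, 895 and 559 were called with no filter on low counts and 230 and 172 with at least 10 reads in every library, a requirement that removes genes absent from one population. Over all lists the calls toward engrafted cells went from 193 to 312 without the filter and to 96 under the stricter one, and those toward the host from 118 to 68 under the latter. Library totals shifted the median by -0.08 on the log2 scale and the share of calls toward engrafted cells from 57.0% to 50.2% (445 and 441 genes). The other settings stayed within 1.5-fold of the reported counts: RLE gave 504 and 380, all 16 libraries 595 and 414, and DESeq2 496 and 368. With the mouse as a replicate block 512 and 390 genes were called, 493 and 375 of them shared with the reported calls, and beyond the p53 list no count of a list moved by over 1.5-fold. The fit of all 16 libraries moved the calls toward engrafted cells to 8 from 5 for TGF-beta signalling, to 5 from 3 for complement, to 10 from 6 for solute carriers, to 1 from 2 for p53 targets and to 2 from 0 for both the NF-kappaB and the glycolysis list. Of 94 list counts, 28 moved by over 1.5-fold without the filter and 42 under the stricter one. Leaving out 1 library gave 515 to 623 and 377 to 448 calls, 196 to 223 and 116 to 132 over the lists, and 6815 to 7663 genes within 2-fold. Of 222 fitted named genes, 212 kept direction and call wherever they were fitted in the 15 alternatives, and 3165 of 3200 fits did. The reversal was Hba-a1, at -2.57 without the engrafted library of mouse 8 and 5.35 without the host library of mouse 8. At this depth 3 reads stood for 2.41 to 5.77 CPM, so levels below that are not told from 0.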

Other observations

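Among 31 tested genes of the cytochrome P450, aldehyde and retinoid enzymes, 5 were higher in engrafted cells. None was higher in the host by edgeR or DESeq2, where 4 had an unadjusted p below 0.05, and 1 was called there with library totals, without the filter on low counts or without either library of mouse 5. Cyp4f18, which oxidizes the tail of fatty acids and leukotrienes, had 221, 257, 229.7 and 273 CPM in the engrafted cells of mice 5 to 8 and 15.4, 16.9, 13.7 and 22.9 in host microglia (3.82 ± 0.17, adjusted p = 2.87e-15). All engrafted values lay above all host values, which the rule for naming genes required. The carbonyl reductase Cbr2 had 56.4, 68.7, 66.1 and 78.9 CPM against 1.54, 4.97, 0 and 4.16 (4.60 ± 0.38), and Cyp4f16 had 35.1 ± 13.04 against 8.91 ± 2.49 (2.06 ± 0.34). The aldehyde reductase Akr1a1, the member of highest level, did not pass the test at 354 ± 34.9 and 399 ± 44.5 CPM (-0.17 ± 0.13).

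Cell cycle and DNA replication genes were mostly below the filter, with 14 of 42 tested. Of the 14, 7.14% were called toward engrafted cells, against 6.25% of all genes. Cenpa, a centromere histone, was the 1 call, toward engrafted cells (19.1, 18.1, 15.7 and 21.2 CPM against 7.68, 3.98, 10.5 and 9.35, 1.20 ± 0.36), and it was no longer tested without the engrafted library of mouse 5 and no longer called without the host library of mouse 6 (0.97) or with all 16 libraries. Without the host library of mouse 7 there were 2 calls toward engrafted cells. Toward the host there was no call by edgeR or DESeq2 and 1 unadjusted p below 0.05. Cyclin D1, Ccnd1, the member of highest level, was at 261 ± 14.5 and 293 ± 34.2 CPM (-0.17 ± 0.13) and did not pass the test.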
